A study of Sisymbrium orientale with 12 samples.

Results

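The WRKY transcription factors were followed in untreated leaves of Indian hedge mustard, Sisymbrium orientale, a weed of the same plant family as Arabidopsis. Members were the assembled transcripts, called contigs, whose annotated function contained "WRKY" and no wording of immune receptors or of pathway terms. This wording found 78 contigs assigned to 46 Arabidopsis loci, of which 54 contigs of 38 loci carry values, among 33277 contigs and 16386 loci in all. Another 8 loci (WRKY12, WRKY30, WRKY40, WRKY45, WRKY50, WRKY53, WRKY59 and WRKY65) were annotated and are not analysed here. Contigs were summed per locus, and each gene name below is that of the closest Arabidopsis locus.

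The lines differed in their resistance to 2,4-D, an auxin-mimicking herbicide, and the study's title ties the resistance to a deletion in the degron tail of the auxin repressor IAA2. Cross B, at generation 3, gave 2 lines that were resistant, RP6 and RP8, and 4 that were susceptible, namely SP3, SP7, SP9 and SRP1. Cross A, at generation 4, gave 3 lines of each kind, the resistant R202, R206 and R221 and the susceptible S205, S207 and S242. Cross and generation cannot be told apart. All plants were untreated and grown alike, and the youngest expanded leaf was taken, so no value here is a response to the herbicide. Each line is 1 library. The number of plants behind a library is not stated, so every p-value measures the spread between these libraries.

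WRKY proteins are plant transcription factors that bind W-box elements in promoters through a WRKY domain with a zinc finger. They are sorted into group I, which carries a pair of WRKY domains, the subgroups IIa to IIe and group III. In Arabidopsis leaves many of them are switched on within minutes to hours by pathogens, wounding or salicylic acid, often behind MAP kinase cascades and VQ-motif partner proteins. Others act in development, such as WRKY44 (TTG2) in trichomes, or in leaf senescence, such as WRKY6.

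Libraries held 100976475 to 145936928 reads. A floor of 3 reads was worth 0.0196 to 0.0299 CPM, the authors' unit of reads scaled to library size. This floor serves only for reading low values, and counts of 0 entered limma and the correlations as log2(CPM + 0.5) like all others. All 5 leaf markers were abundant, and the 3 seed markers were not used here. The susceptible lines S205 and SP9 stood apart: the Rubisco small chain took 6.62% of the signal in S205 and 5.17% in SP9, against 3.39% to 4.60% in the other 10 lines. Among those 10, the share was 3.39% to 3.79% in the resistant lines and 3.49% in the susceptible S242. In the susceptible S207, SP3, SP7 and SRP1 it was 4.21% to 4.60%. The share thus differed along the comparison of phenotypes, also with S205 and SP9 left out. Its part in the values of members was not tested. Results that rest on S205 and SP9 are given with and without them.

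Of the 38 members, 33 passed the filter of at least 1 CPM in at least 5 lines, which is 86.8% of members against 98.0% of all loci. The 5 below it were WRKY25, WRKY28, WRKY8, WRKY48 and WRKY27, and no member was at 0 in any line. Of the 33, 25 reached 1 CPM in all 12 lines. Among loci that the wording found, the family was measured unevenly across its groups. WRKY1 and WRKY19, annotated in other words, had values too and are described at the end. All 7 listed members of group IId, the calmodulin-binding branch, had values, as had 10 of 15 in group I, 8 of 17 in group IIc, 4 of 8 in group IIe and 3 of 8 in group IIb. Only 3 of 14 in group III and 1 of 3 in group IIa had values. Group IIa was represented by WRKY18 alone, an immune regulator that in Arabidopsis acts with its close relatives WRKY40 and WRKY60.

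Levels were compared between genes only as CPM per kb of contig. WRKY31 of group IIb stood highest at 29.4 ± 5.09 CPM per kb (SD, n = 12 lines), on a single contig of 765 bases. WRKY20 of group I followed at 25.7 ± 1.75 CPM per kb. The calmodulin-binding WRKY21 averaged 14.6 ± 3.52 CPM per kb, and WRKY3, which in Arabidopsis contributes to resistance to necrotrophic fungi, averaged 12.8 ± 1.15 CPM per kb. The most abundant member of group III was WRKY54, a regulator of salicylic acid responses and of leaf ageing, at 9.06 ± 2.74 CPM per kb. The ranges over lines of WRKY31 and WRKY20 overlapped each other, as did those of WRKY21 and WRKY3.

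Several members known for immune induction in Arabidopsis had low levels, though WRKY54 above and WRKY70, at 5.26 CPM per kb, did not. WRKY11 and WRKY17, repressors of basal resistance, stood at 6.85 and 3.09 CPM per kb. Low levels were not particular to immune members. WRKY23 and WRKY57, named below for other roles, stood at 1.07 and 1.89 CPM per kb. WRKY33, the regulator of camalexin synthesis downstream of the kinases MPK3 and MPK6, averaged 1.71 ± 0.777 CPM per kb (SD, n = 12 lines). WRKY18 averaged 1.3 ± 0.679 CPM per kb, and WRKY46, a group III gene of salicylic acid and drought responses, 1.83 ± 0.649 CPM per kb. WRKY22 and WRKY29, which act behind the flagellin receptor in Arabidopsis, averaged 1.62 ± 0.416 and 0.998 ± 0.544 CPM per kb. WRKY8, at 0.574 ± 0.506 CPM per kb, was the lowest member. Group medians of CPM per kb ordered the branches as III (5.26), I (5.14), IId (4.64), IIb (4.31), IIc (1.49), IIe (1.31) and the single IIa member (1.3), with ranges that overlapped between neighbours.

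**Figure D1:**
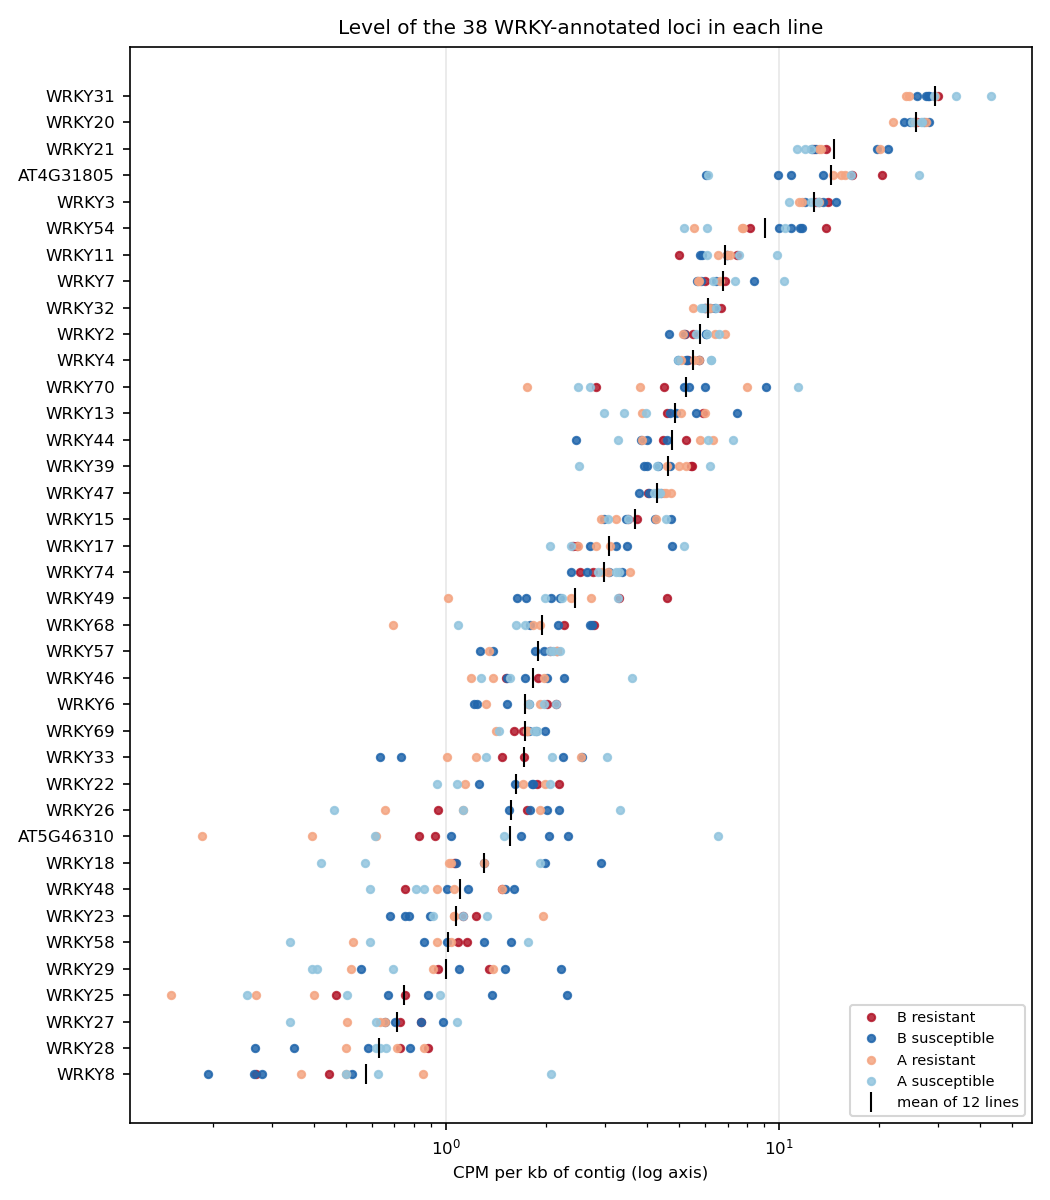
Level of the 38 WRKY-annotated loci in CPM per kb of contig on a log axis, with 1 point per line coloured by group and a bar at the mean of 12 lines. The means run from 29.4 CPM per kb in WRKY31 to 0.574 in WRKY8, and the points of the 4 groups intermix for most genes.

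Of the 38 members, 2 lie outside the numbered family. AT4G31805 is annotated as a WRKY factor, but in Arabidopsis it is POLAR, a polarity protein of dividing stomatal precursor cells, and it averaged 14.3 ± 5.71 CPM per kb (SD, n = 12 lines). AT5G46310 is annotated as family only and averaged 1.56 ± 1.70 CPM per kb. Both are kept as members, since the wording chose them, and are set apart below.

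Resistant lines were compared with susceptible lines over all 12 libraries, with cross as a covariate. Of the members, 0 of 33 passed an adjusted p of 0.05 (limma, Benjamini-Hochberg over 16051 loci), where 0% of all loci passed. At an unadjusted p under 0.05 stood 1 of 33 members (3.03%), against 8.22% of all loci. With edgeR and with DESeq2 on the recovered reads, 0 members passed as well, while DESeq2 called 20 of all loci. The median log2 difference was -0.01 over the members and -0.01 over all loci, and the resistant lines of 0 members all lay on one side of the susceptible lines, against 0.53% of loci.

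AT5G46310 had the smallest p. It stood at 0.816 and 0.908 CPM in RP6 and RP8, against 1.99, 1.01, 2.29 and 1.65 CPM in SP3, SP7, SP9 and SRP1. In cross A it stood at 0.182, 0.389 and 0.606 CPM in R202, R206 and R221, against 6.42, 1.47 and 0.598 CPM in S205, S207 and S242. All resistant lines were under 1 CPM, and of the susceptible lines S242 was too. The log2 difference was -1.11 ± 0.39 (SE), and limma's adjusted p was 0.587. S205 and SP9 were its 2 highest lines, and without them the difference was -0.65 (limma, adjusted p = 0.907). The authors' deposited table of resistant against susceptible holds 277 contigs, 3 of them of members, beside 33277 contigs and 54 member contigs with values. It lists both contigs of AT5G46310, with log2 fold changes of -2.28 (FDR 0.410) and -1.75 (FDR 1). It also lists WRKY25, a heat-response factor, at -1.35 (FDR 1).

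The next members by p were given as values only. WRKY23, an auxin-inducible gene of root and embryo patterning in Arabidopsis, averaged 1.80 ± 0.533 CPM in 5 resistant lines and 1.29 ± 0.321 CPM in 7 susceptible lines (SD), a log2 difference of 0.30 ± 0.15 (limma, adjusted p = 0.587). Its highest line was R206 at 2.73 CPM, and the other resistant lines lay between 1.48 and 1.72 CPM, within the susceptible range of 0.949 to 1.86 CPM. WRKY39, a calmodulin-binding heat-response gene, averaged 10.4 ± 0.709 CPM in the 5 resistant lines and 8.64 ± 2.22 CPM in the 7 susceptible ones, a log2 difference of 0.31 ± 0.17 (limma, adjusted p = 0.589). AT4G31805 followed, with means of 18.8 ± 2.43 CPM among resistant lines and 14.5 ± 8.02 CPM among susceptible ones. WRKY7, another member of group IId, averaged 9.89 ± 0.863 CPM among resistant lines and 11.5 ± 2.70 CPM among susceptible ones. Leaving out S205 and SP9 gave log2 differences of 0.13 for WRKY39, 0.11 for AT4G31805 and -0.04 for WRKY7. None of these differences exceeded the spread between lines after adjustment.

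Within the crosses the same held. In cross A, 0 of 33 members and 0% of loci were called by limma, with 3 members (9.09%) and 5.16% of loci at an unadjusted p under 0.05. In cross B, 0 members and 0.0249% of loci were called, with 2 members (6.06%) and 4.40% of loci unadjusted. For the difference between the crosses' effects, 0 members and 0% of loci were called, with 3 members (9.09%) and 3.10% of loci unadjusted. Neither edgeR nor DESeq2 called a member in any of these 3 comparisons.

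Some members of small p in each cross are given here, and they differed in kind. WRKY31 stood at 18.7, 22.4 and 18.3 CPM in R202, R206 and R221, against 33.1, 26.0 and 22.2 CPM in S205, S207 and S242, a log2 difference of -0.43 ± 0.14 (SE) at an adjusted p of 0.686 by limma. The groups overlapped only through R206 and S242. S205 was the highest line, and leaving it out gave a difference of -0.28 that did not pass limma's adjustment. WRKY13, a factor of stem lignification, stood at 6.79, 5.16 and 8.00 CPM in the same resistant lines, against 4.56, 5.30 and 3.96 CPM in the susceptible ones, a log2 difference of 0.47 ± 0.20 (limma, adjusted p = 0.686).

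In cross B, WRKY49 stood at 3.96 and 5.53 CPM in RP6 and RP8, against 2.08, 2.48, 2.64 and 1.94 CPM in SP3, SP7, SP9 and SRP1. Both resistant lines lay above all 4 susceptible lines, with a log2 difference of 0.90 ± 0.30 (SE) at an adjusted p of 0.974 by limma. WRKY6, a senescence and phosphate-starvation factor, stood at 4.14 and 3.88 CPM in the resistant lines, against 2.95, 2.40, 3.43 and 2.35 CPM in the susceptible ones (log2 difference 0.47 ± 0.18; limma, adjusted p = 0.985). In all, 13 of 33 members (39.4%) had cross B lines that did not overlap by phenotype, against 21.9% of all loci. In cross A, where WRKY21 and WRKY47 did not overlap, the shares were 6.06% of members and 7.58% of loci.

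WRKY49 and WRKY6 also led the difference between crosses. The resistant-minus-susceptible effect was larger in cross B than in cross A by 1.2 ± 0.42 on the log2 scale for WRKY49 and by 0.69 ± 0.24 for WRKY6 (SE; limma, adjusted p = 0.999 for both). In cross A, WRKY49 stood at 2.84, 3.26 and 1.23 CPM in the resistant lines, against 2.68, 2.37 and 3.94 CPM in the susceptible lines. WRKY31 followed, with a difference of 0.54 ± 0.20. None passed adjustment.

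Cross B against cross A gave calls for 1.25% of all loci (200 of 16051, limma), and for 0 of 33 members. At an unadjusted p under 0.05 stood 4 members (12.1%), all higher in cross B, against 13.6% of all loci. WRKY54 had the smallest p. It stood at 11.3 and 19.1 CPM in RP6 and RP8 and at 16.2, 15.0, 16.0 and 13.8 CPM in SP3, SP7, SP9 and SRP1. In cross A it stood at 7.66, 10.7 and 10.8 CPM in R202, R206 and R221 and at 14.4, 7.15 and 8.41 CPM in S205, S207 and S242. The crosses overlapped through S205, which lay above RP6 and SRP1.

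The log2 difference of WRKY54 was 0.62 ± 0.18 (SE), and limma's adjusted p was 0.129. Without S205 and SP9 it was 0.75 (limma, adjusted p = 0.0595), without S205 alone 0.77 with an adjusted p of 0.0380, where 1.41% of all loci passed, and DESeq2, which called 4.82% of all loci, gave 0.62 with an adjusted p of 0.0383. Leaving out S205 alone and using DESeq2 were the only 2 of its 24 alternatives that passed, and over all of them the adjusted p ran from 0.0380 to 0.310. The call thus depended on 1 susceptible line of cross A and on the tool.

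The other 3 members at an unadjusted p under 0.05 were WRKY68, WRKY13 and WRKY29. WRKY68 averaged 1.32 ± 0.219 CPM in cross B and 0.807 ± 0.263 CPM in cross A (SD, n = 6 lines each), a log2 difference of 0.50 ± 0.17 (limma, adjusted p = 0.210). WRKY13 averaged 7.40 ± 1.44 CPM in cross B and 5.63 ± 1.5 CPM in cross A (adjusted p = 0.289, limma), and WRKY29 1.42 ± 0.631 and 0.801 ± 0.423 CPM (adjusted p = 0.337, limma). WRKY3 came next, at 28.1 ± 2.04 CPM in cross B and 25.3 ± 2.03 CPM in cross A. No member had crosses that did not overlap, where 2.06% of all loci did.

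**Figure D2:**
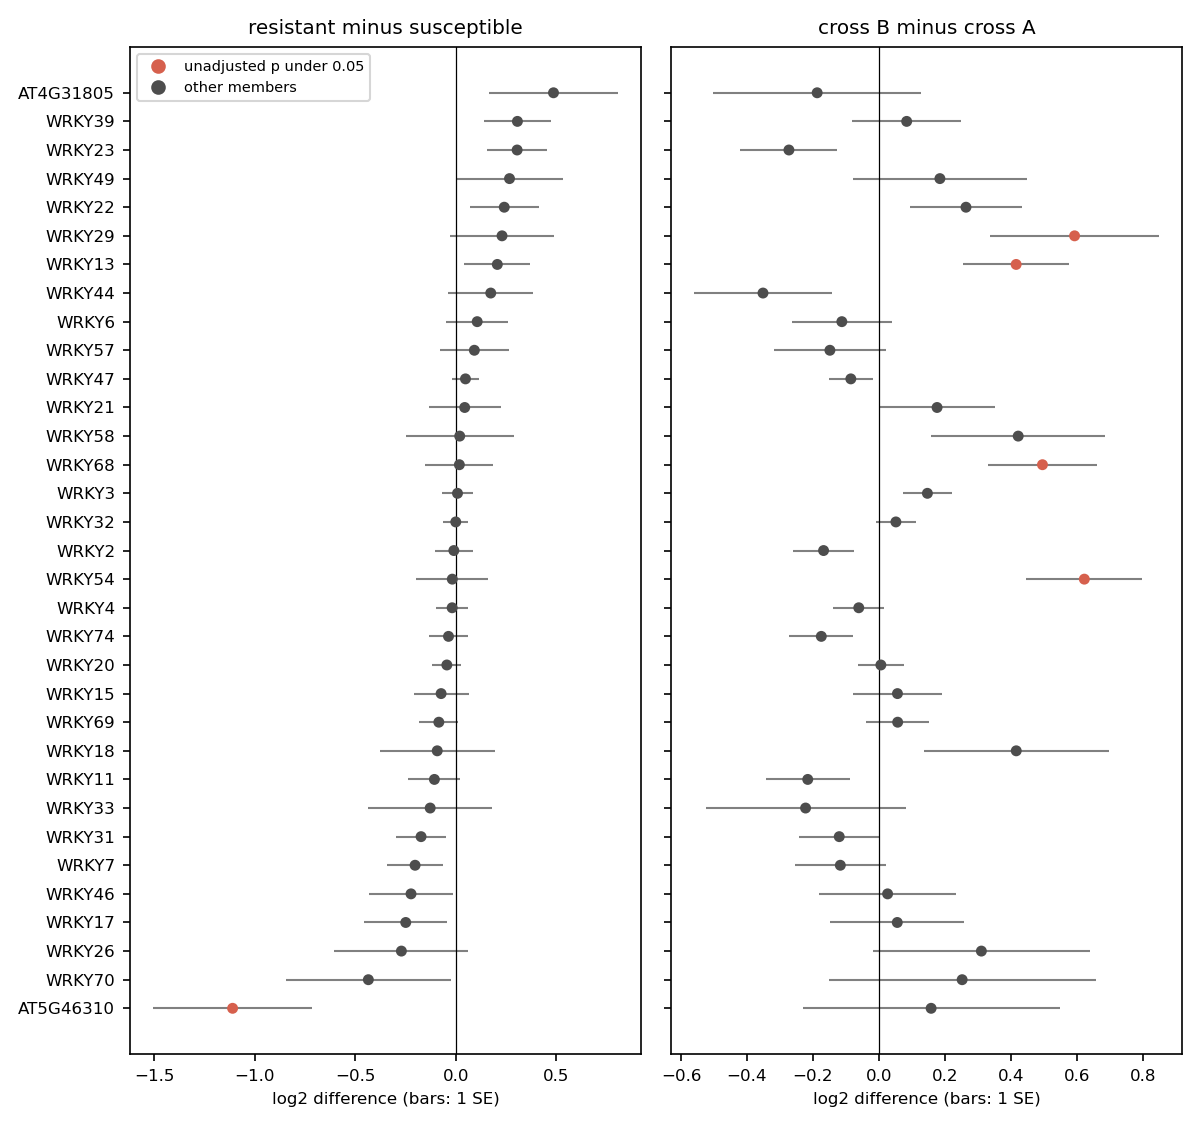
Log2 differences of the 33 kept members, resistant minus susceptible on the left and cross B minus cross A on the right, with bars of 1 SE from limma. AT5G46310 at -1.11 is the widest of the left panel and WRKY54 at 0.62 of the right, and no member passed an adjusted p of 0.05 in either.

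Members differed widely in how much they varied between lines. The median SD of log2(CPM + 0.5) over the 12 lines was 0.314 for members and 0.229 for all kept loci. The 5 steadiest kept members were WRKY32 (SD 0.0699), WRKY47 (0.0804), WRKY20 (0.0993), WRKY4 (0.111) and WRKY69 (0.116). WRKY32 ranged only from 9.75 to 11.8 CPM. The 8 most variable of the 33 kept members were AT5G46310 (0.889), WRKY70 (0.754), AT4G31805 (0.613), WRKY26 (0.605), WRKY33 (0.528), WRKY18 (0.522), WRKY29 (0.522) and WRKY58 (0.491). Below the filter, WRKY25 (0.573) and WRKY8 (0.554) varied as much.

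WRKY70, a hub between salicylic acid and jasmonate defences, showed how these members moved. It stood at 3.71 and 5.94 CPM in RP6 and RP8, at 6.81, 7.87, 12.03 and 7.07 CPM in SP3, SP7, SP9 and SRP1, at 2.31, 5.02 and 10.5 CPM in R202, R206 and R221, and at 15.0, 3.28 and 3.56 CPM in S205, S207 and S242. The highest line was susceptible and the lowest resistant, but the resistant R221 came just below SP9, and the susceptible S207 just above R202, so the phenotypes intermixed. WRKY26, a heat-response factor related to WRKY33, had 4.65 CPM in S205 and 0.646 CPM in S242, so its highest and lowest lines belonged to the same group.

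S205 was the highest line for 10 of 33 members (30.3%) and the lowest for 5 (15.2%). Over all loci it was the highest for 24.5% and the lowest for 25.9%. The 10 were AT5G46310, WRKY70, WRKY26, WRKY33, WRKY58, WRKY17, WRKY46, WRKY7, WRKY11 and WRKY31, and the 5 were AT4G31805, WRKY39, WRKY22, WRKY29 and WRKY21. The summed level of all members was 327 CPM in S205 against 273 to 311 CPM in the other 11 lines. These values depended on the scaling. Scaled so that every column had the same sum, in CPM, S205 had 277 against 271 to 326 in the other 11 lines, and was the highest line for 7 members (21.2%, against 12.2% of loci) and the lowest for 9 (27.3%, against 44.0% of loci). Rescaled by the median ratio it had 326 against 269 to 310. The part of this line's Rubisco share, given above, in these values was not tested.

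**Figure D3:**
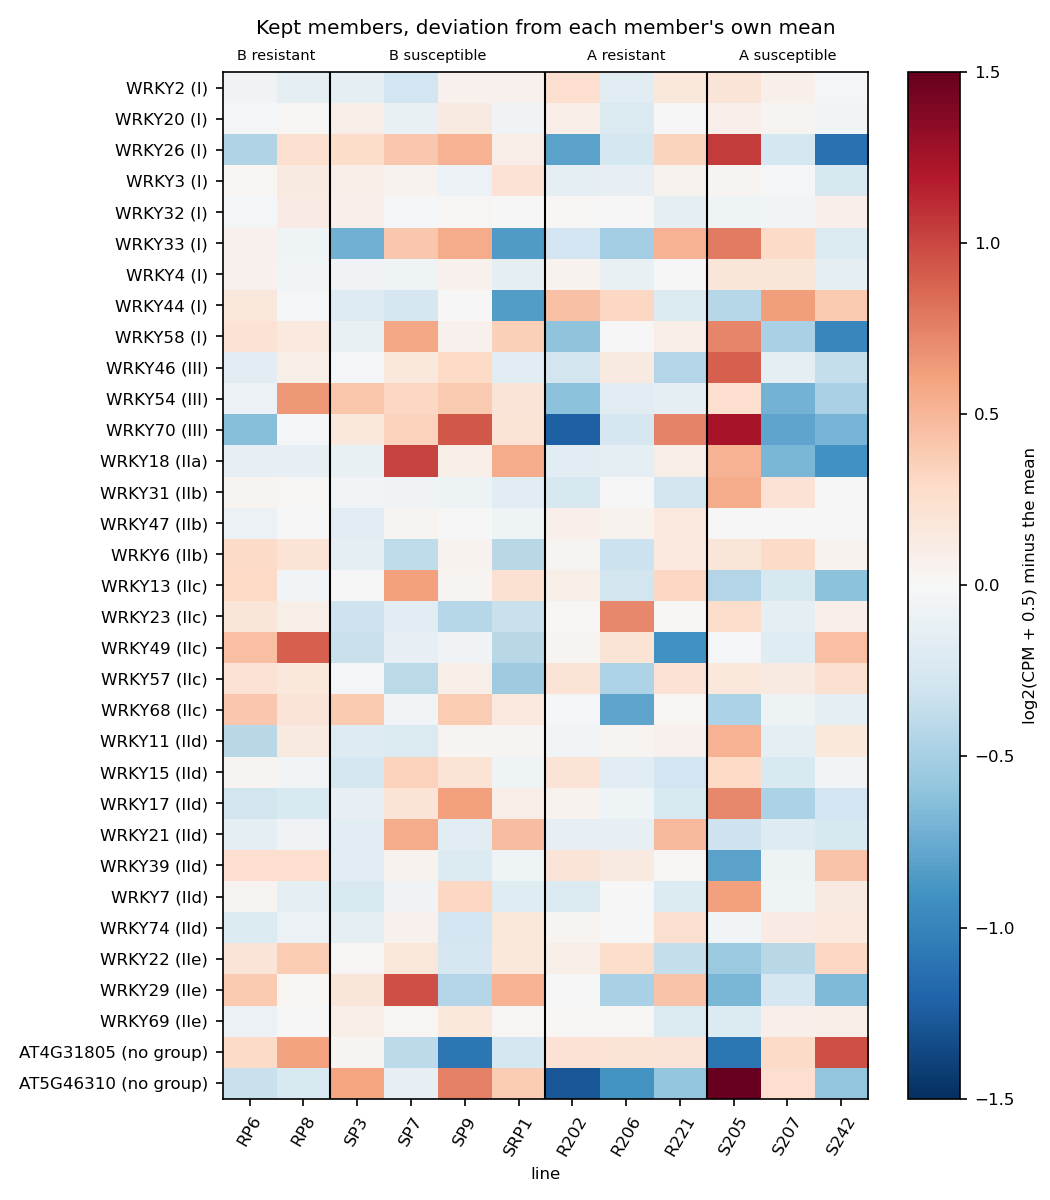
Deviation of each kept member from its own mean, as log2(CPM + 0.5), in the 12 lines ordered by group, with the family group in brackets and the colour scale ending at 1.5 either way. WRKY32, WRKY47 and WRKY20 are pale throughout, and the highest and lowest cells of WRKY26 both lie among the cross A susceptible lines.

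In a few members the widest gap between neighbouring lines left at least 2 lines on each side. WRKY21 stood at 30.9, 32.5 and 30.5 CPM in R221, SP7 and SRP1, against 17.6 to 21.1 CPM in the other 9 lines. These high lines were 1 resistant line of cross A and 2 susceptible lines of cross B. WRKY18 stood at 0.607 and 0.449 CPM in S207 and S242, both of cross A and susceptible, and at 1.09 CPM or more in the other 10 lines, with SP7 highest at 3.09 CPM. Its gap of 0.52 on the log2 scale was small beside its range of 1.92. AT4G31805 stood at 6.88 CPM in both S205 and SP9, each susceptible, and at 11.4 CPM or more elsewhere.

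Members with a gap of at least 0.5 on the log2 scale and at least 2 lines on each side numbered 3 of 33 (9.09%), against 5.94% of all kept loci. Among single contigs, 7 of 54 (13.0%) had such a gap, against 11.7% of all contigs. One of the 2 contigs of WRKY33 was at 0.0305 CPM in SP3 and 0.0239 CPM in SRP1, at about the floor of 3 reads, and at 0.542 to 1.71 CPM in the other 10 lines. The other WRKY33 contig was at 0.908 and 0.788 CPM in those 2 lines, within its range of 0.579 to 2.07 CPM. The sources used here do not say how reads matching several contigs were counted, so single contigs are uncertain.

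Gaps in single contigs lay in WRKY57, a drought and senescence factor, and in WRKY44. The S-assembly contig of WRKY57 stood at 0.639, 1.05 and 0.677 CPM in R206, SP7 and SRP1, against 1.69 to 2.74 CPM in the other 9 lines, while both R-assembly contigs kept between 0.792 and 1.33 CPM throughout. One WRKY44 contig stood at 2.74, 2.06 and 2.64 CPM in R221, S205 and SRP1, and at 4.45 CPM or more elsewhere. For the 5 members with contigs of both assemblies, the R-to-S ratio passed the test neither by phenotype (0 of 5 called by limma, against 0.0467% of 4286 loci) nor by cross (0 of 5, against 2.26%). At an unadjusted p under 0.05 stood 0 of 5 in both, against 7.19% and 17.5% of loci.

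The family did not vary as a block. Over the 528 pairs of kept members, the median Pearson correlation of log2(CPM + 0.5) across the 12 lines was 0.01, with quartiles of -0.30 and 0.30. Over all 128809275 pairs of kept loci the median was 0.00, with quartiles of -0.34 and 0.34. Correlations of at least 0.8 were held by 7 member pairs (1.33%), against 2.37% of all pairs, and correlations of -0.8 or below by 2 (0.379%), against 1.95%. Leaving out S205 and SP9 turned the first comparison round, with 12 member pairs (2.27%) against 1.31% of all pairs at 0.8 or more, and gave 4 (0.758%) against 0.951% at -0.8 or below. All points share the same 12 libraries and 2 crosses, so these are descriptions.

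The measured members of group III, WRKY54, WRKY46 and WRKY70, had a median of 0.62 over their 3 pairs, the highest of any branch. Without S205 and SP9 the correlation of WRKY46 with WRKY70 was 0.18 and that of WRKY54 with WRKY70 was 0.68. Medians in groups I (36 pairs), IId (21 pairs), IIc (10 pairs), IIb (3 pairs) and IIe (3 pairs) were 0.05, -0.02, -0.03, 0.08 and 0.25. When S205 and SP9 were left out, the median of group III was 0.58 and that of group IIe -0.11.

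The closest pairs joined different branches. WRKY29 and WRKY13 had r = 0.93 across the 12 lines, and both were highest in SP7, at 2.47 and 9.98 CPM. S205 and S242 were the 2 lowest lines of both, and WRKY21 followed them with r = 0.82 to WRKY29 and 0.77 to WRKY13. WRKY6 and WRKY57 had r = 0.92, and both were lowest in R206, SP7 and SRP1. WRKY6 stood at 2.54, 2.40 and 2.35 CPM there, against 2.95 to 4.14 CPM in the other 9 lines. For WRKY57 the gap at those lines lay in its S-assembly contig. Both of its R-assembly contigs kept between 0.792 and 1.33 CPM in all lines.

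WRKY70 and WRKY26 had r = 0.91, with R202 and S242 low and S205 and SP9 high in both. Without S205 and SP9 these 3 pairs had r = 0.97, 0.92 and 0.86. The most opposed pairs were WRKY17 with AT4G31805 (r = -0.91), WRKY39 with AT5G46310 (-0.89) and WRKY39 with WRKY26 (-0.80). Without S205 and SP9 they had r = -0.71, -0.67 and -0.67. WRKY17 with WRKY46, at 0.78, and WRKY46 with WRKY7, at 0.77, had 0.36 and 0.04 without those 2 lines.

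**Figure D4:**
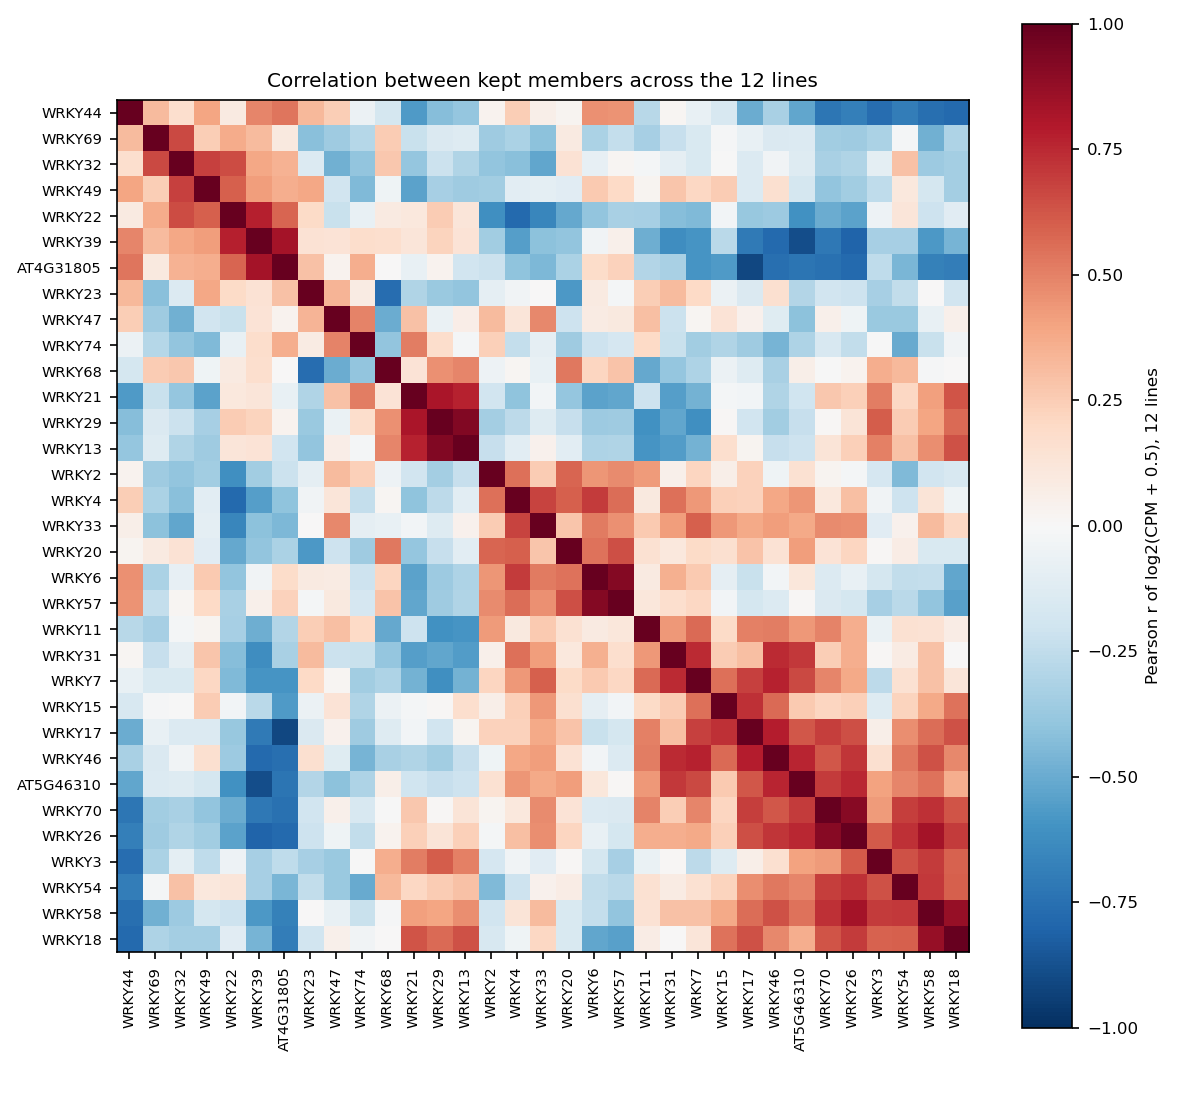
Pearson correlation between the 33 kept members across 12 lines, ordered by average linkage, with red for positive and blue for negative values. WRKY70 and WRKY17 are most opposed to AT4G31805 (r = -0.75 and -0.91), and WRKY26 to WRKY39 (-0.80). WRKY54, WRKY58 and WRKY18 are most opposed to WRKY44 (-0.69, -0.75 and -0.78). Without S205 and SP9, WRKY17 with AT4G31805 had -0.71 and WRKY26 with WRKY39 -0.67. Most of the matrix is pale, with a median of 0.01.

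Pairs of close members of a WRKY group, or of a member and a partner or target known from Arabidopsis, were examined one by one. The pairs were listed with earlier results of these data known, so their p-values are not those of pairs chosen blind. Of 27 listed pairs 12 could be measured, and 2 passed an adjusted p of 0.05 over these 12 (two-sided permutation test, 100000 resamples). WRKY70 and PR2, a glucanase marker of salicylic acid defence, had r = 0.79 (rho 0.76, permutation p = 0.00223, adjusted p = 0.0134). PR2 stood at 107 and 153 CPM in RP6 and RP8, at 195, 168, 222 and 175 CPM in SP3, SP7, SP9 and SRP1, at 45.2, 108 and 85.5 CPM in R202, R206 and R221, and at 265, 97.0 and 68.2 CPM in S205, S207 and S242. S205 and SP9 were the highest lines of both genes and R202 the lowest, while R221 had much WRKY70 and little PR2.

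The relation rested in part on those lines. Without R202 and S205, the 2 lines farthest from the median of WRKY70, r was 0.59. Without R202 alone it was 0.70 (permutation, adjusted p = 0.105), without S205 alone 0.73 (adjusted p = 0.0625), and without S205 and SP9 0.66 (adjusted p = 0.155). On deviations from the 4 group means r was 0.85, with an adjusted permutation p of 0.171.

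WRKY44 (TTG2) and GL2, which act together in trichome and seed coat differentiation, had r = 0.80 (rho 0.75, permutation p = 0.00196, adjusted p = 0.0134). WRKY44 stood at 9.52 and 8.18 CPM in RP6 and RP8, at 7.29, 6.97, 8.34 and 4.47 CPM in SP3, SP7, SP9 and SRP1, at 11.5, 10.5 and 7.21 CPM in R202, R206 and R221, and at 6.12, 13.2 and 11.2 CPM in S205, S207 and S242. GL2 stood at 15.5 and 13.6 CPM in RP6 and RP8, at 13.6, 9.89, 16.0 and 9.55 CPM in SP3, SP7, SP9 and SRP1, at 16.9, 14.2 and 16.8 CPM in R202, R206 and R221, and at 14.4, 21.0 and 19.8 CPM in S205, S207 and S242. SRP1 was the lowest line of both genes and S207 the highest. In whole leaves, fewer cells of a type and less RNA per cell cannot be told apart.

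Without S207 and SRP1, the 2 lines farthest from the median of WRKY44, r with GL2 was 0.56. The adjusted p was 0.0504 without R202 (r = 0.79), 0.0617 without S207 (r = 0.74) and 0.0658 without SRP1 (r = 0.68), all by permutation. On deviations from the group means r was 0.70 (permutation, adjusted p = 0.171). Of the other trichome genes, EGL3 and GL1 had r = 0.62 and 0.59 with WRKY44, TTG1 0.12, TRY 0.03, CPC -0.04 and GL3 -0.10. Leaving out S205 and SP9 gave 0.84 for GL2, 0.80 for EGL3, 0.72 for GL1 and 0.63 for TTG1, while TRY, CPC and GL3 lay between -0.05 and 0.00.

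The other 10 pairs did not pass. WRKY54 and WRKY70 came closest (r = 0.69, permutation, adjusted p = 0.0577). WRKY33 had r = 0.46 with its kinase MPK3, 0.01 with SIB1 and 0.02 with MKS1, both VQ proteins that bind it. Without S205 and SRP1, the 2 lines farthest from the median of WRKY33, these values were 0.68, 0.14 and -0.21. WRKY3 and WRKY4, which act redundantly against fungi, had r = -0.04. WRKY11 and WRKY17, paired repressors of basal resistance, had r = 0.50, and -0.06 without RP6 and S205. The remaining pairs were WRKY6 with WRKY31 (r = 0.35), WRKY8 with WRKY28 (0.28), WRKY25 with WRKY33 (0.17) and WRKY54 with ICS1 (0.00).

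Of the salicylic acid genes beside PR2, PBS3 (r = 0.74), NPR1 (0.71) and NPR4 (0.69) stood closest to WRKY70. PAD4 (-0.21) and EDS5 (-0.30) were at the other end, and 10 of 13 genes had a positive r. The list depended on S205 and SP9. In the other 10 lines NPR1 (0.74), NPR3 (0.70), NDR1 (0.69) and PR2 (0.66) stood closest to WRKY70, where NPR3 and NDR1 had 0.27 and 0.31 over all 12. PBS3 had 0.57 and NPR4 0.42 there. ALD1 (-0.62), EDS5 (-0.50) and ICS1 (-0.44) were then lowest, where ALD1 and ICS1 had -0.01 and 0.26 over all 12. DMR6 had -0.11 against 0.58, and 8 of 13 genes were positive.

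The correlations of AT4G31805 with the 31 kept members of the numbered family had a median of -0.21, and 13 were positive. Numbered members reached similar medians, such as WRKY39 at -0.30 and WRKY69 at -0.23, and leaving out S205 and SP9 gave AT4G31805 a median of 0.08. A list of 10 stomatal lineage genes, drawn up after the values of AT4G31805 were seen, was set beside it. All 10 had a positive r with it, with a median of 0.88. ERL2, a receptor kinase that limits stomatal number, had r = 0.95, the secreted inhibitor EPF2 0.94, the polarity protein BASL 0.93, ICE1 0.92 and SPCH, the factor that starts the lineage, 0.90. FAMA, which acts in the last division, had 0.34, and EPF1 had 0.55.

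S205 and SP9 were the 2 lowest lines of AT4G31805, and without them ERL2 had r = 0.92, EPF2 0.84, BASL 0.78 and SPCH 0.67. AT4G31805 stood at 18.5 and 23.1 CPM in RP6 and RP8, against 15.6, 11.4, 6.88 and 12.5 CPM in SP3, SP7, SP9 and SRP1. In cross A it stood at 17.7, 17.5 and 17.4 CPM in R202, R206 and R221, against 6.88, 18.6 and 29.9 CPM in S205, S207 and S242. The resistant lines lay close together and the susceptible lines spanned both extremes, with a log2 difference of 0.49 ± 0.32 (SE) at an adjusted p of 0.616 by limma. WRKY18, whose locus AT4G31800 precedes it in Arabidopsis numbering, had r = -0.69 with it.

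**Figure D5:**
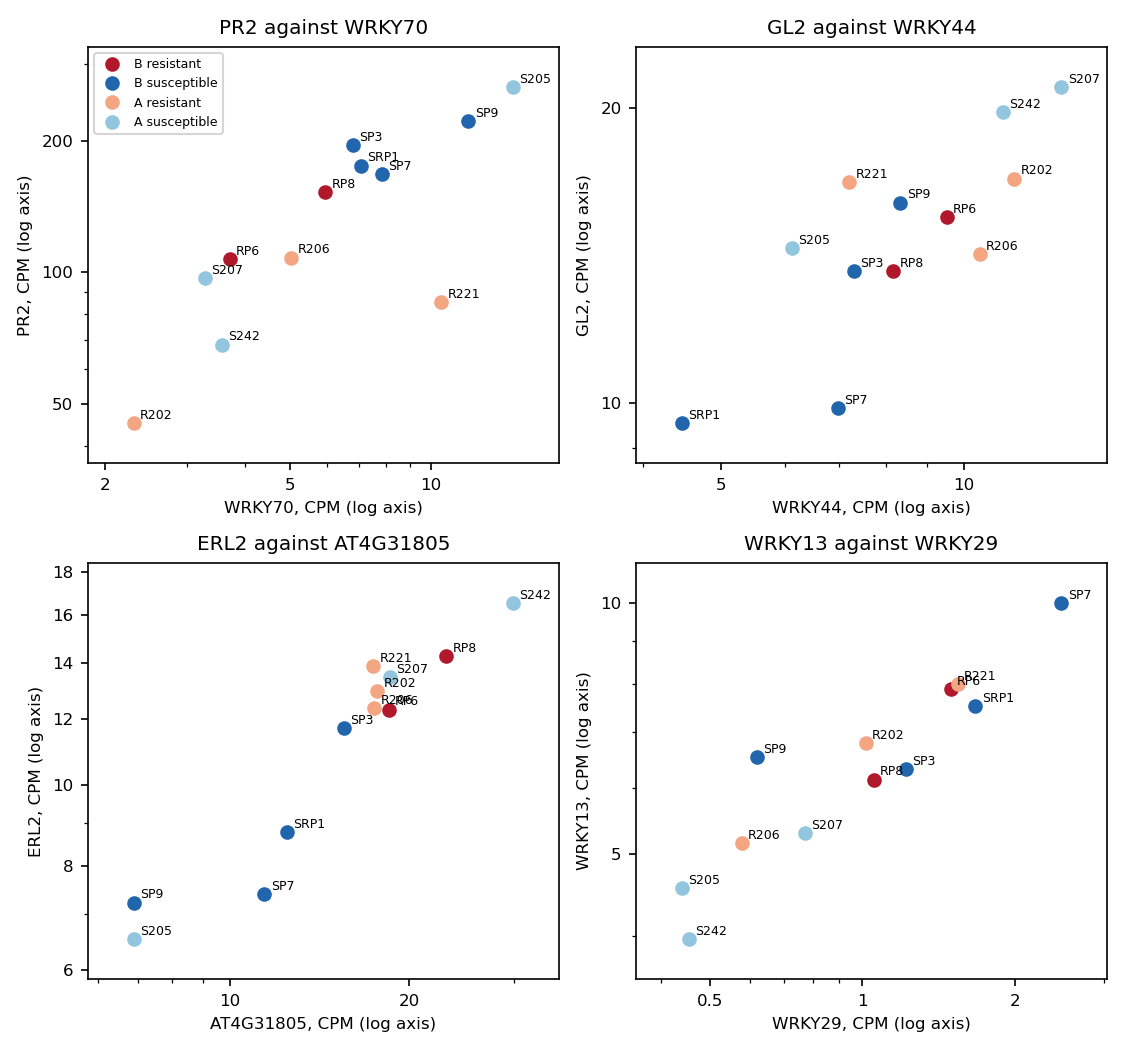
Levels in CPM on log axes for PR2 against WRKY70, GL2 against WRKY44, ERL2 against AT4G31805 and WRKY13 against WRKY29, with 1 labelled point per line coloured by group. The correlations of log2 values are 0.79, 0.80, 0.95 and 0.93. In the panel of PR2, R221 lies below the lines nearest to it in WRKY70, though R202 and S242 have less PR2.

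The genes around the family were described by counts. No gene of any list was called by limma in the comparison of phenotypes or of crosses. DESeq2 called 5 of 60 tested list genes between crosses (8.33%, against 4.82% of all loci), namely CYP79B2, PAD4, PR1, PUB23 and VQ4. Of the MAP kinase cascade, which phosphorylates several WRKY proteins, 11 of 12 listed genes were tested. Between phenotypes 2 of these stood at an unadjusted p under 0.05, where 8.22% of all loci did. They were MPK6 with a log2 difference of 0.14 and AP2C1 with 0.38, both with an adjusted p of 0.587, and AP2C1 had 0.22 when S205 and SP9 were left out (limma, adjusted p = 0.931). The list's median log2 difference was -0.02, beside -0.01 over all loci.

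Of 11 VQ proteins, small partners of WRKY factors, 6 were tested. VQ4 had the smallest p between phenotypes, with a log2 difference of -0.36 ± 0.11 (SE) at an adjusted p of 0.587 by limma, and between crosses 0.44 ± 0.11 (adjusted p = 0.0869). Of 21 salicylic acid genes, 13 were tested. Between crosses PR1 had a log2 difference of 1.15 ± 0.27 (limma, adjusted p = 0.0701). It passed without S205 (1.42, limma, adjusted p = 0.00969) and without S205 and SP9 (1.44, adjusted p = 0.0149). PAD4 had a difference of -0.65 ± 0.16 (limma, adjusted p = 0.0889), and -0.81 without RP6 (adjusted p = 0.0269). RP6 was the only line whose removal by itself let PAD4 pass. The list had 2 genes higher and 2 lower in cross B at an unadjusted p under 0.05 (of 13, where 13.6% of all loci did), and its median was -0.03, beside 0.01 over all loci.

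Only 2 of 10 camalexin and other WRKY33 target genes were tested. CYP79B2, of indole glucosinolate and camalexin synthesis, had a log2 difference of -1.0 ± 0.26 between crosses (SE; limma, adjusted p = 0.0984), and -1.19 without R202 (adjusted p = 0.0156). R202 was the only line whose removal by itself let CYP79B2 pass. Of 30 genes that wounding or touch switches on quickly, 12 were tested and 1 stood at an unadjusted p under 0.05 between crosses, against 13.6% of all loci, the ubiquitin ligase PUB23 at -0.56 ± 0.16 (limma, adjusted p = 0.121). Of 9 senescence genes 4 were tested, with SEN1 at -0.61 ± 0.21 between phenotypes (adjusted p = 0.587). Of 8 trichome genes 7 were tested, with GL1 at 1.52 ± 0.61 between phenotypes and GL2 at -0.39 ± 0.15 between crosses (limma, adjusted p = 0.587 and 0.294). GL1 was at 0 CPM in S205 and 0.153 CPM in SP9, against 1.59 CPM or more in the other 10 lines. Leaving out both gave it 0.68 between phenotypes (limma, adjusted p = 0.907) and -1.19 between crosses (adjusted p = 0.0393), against -0.79 with them (adjusted p = 0.614).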

How the data were processed

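Leaf RNA of 12 lines was sequenced from stranded poly(A) libraries, per the labels. The authors deposited a normalized signal per contig (CPM on a scaled library size, from 2 assemblies marked R and S), contig annotations, and their own comparison of resistant with susceptible lines, with log2 fold changes and p-values. The submitters' processing notes name Bowtie2, SAMtools 1.3.1, edgeR, R 3.3 and TAIR10. How reads shared by contigs were counted is not stated in these sources. The design was written for CPM, and the values were tested as such. Whole reads were recovered from the smallest step of each column (100% of values whole within 0.1; in R206, whose step lies near 0.01, 16.4% were whole at 0.01 itself).

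Contig values were summed per Arabidopsis locus and tested as log2(CPM + 0.5) with limma 3.58.1 (R 4.3.3, mean-variance trend) over loci with at least 1 CPM in at least 5 lines, with Benjamini-Hochberg adjustment over all 16051 and a threshold of 0.05. Such fold changes understate those of low loci. The cross was a covariate between phenotypes and the phenotype between crosses; comparisons within crosses used 1 mean per group. Alternatives were edgeR 4.0.16 (quasi-likelihood, TMM) and DESeq2 1.42.0 on the recovered reads, other pseudocounts, filters and scalings, single contigs, single assemblies and each line left out. Correlations of chosen pairs were tested with 100000 permutations, adjusted over the 12 measured. The steps were tested on simulated data.

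The members, the lists and the pairs tested by permutation were chosen with earlier results of these data known. Named members were, between phenotypes and between crosses, those called or else the 5 of smallest p. Within each cross and for the difference between crosses, up to 3 members of small p were named. Also named were the 8 most and 5 least variable, all of group IIa and up to 4 of each other group by level. The chosen pairs, the 3 highest and 3 lowest correlated pairs, and up to 3 genes per list were named too. The lines' split members, single contigs, further pairs and stomatal genes were chosen after their values were seen.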

Additional observations from a re-analysis of the deposited data

How the results depend on the processing

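No paired analysis was possible because the replicate numbers only name the lines and are shared by no label. The counts of called members stayed at 0 of 33 between phenotypes, within each cross and for the difference between crosses under every alternative run, each line left out included, as did the counts of the assembly ratio at 0 of 5. Between crosses the count was 1 with DESeq2, and 0 to 1 with each line left out (1 without S205). Of the 5 members of smallest p in each of the 2 main comparisons, none changed direction. The number of kept members was 14 with the R assembly alone. The median member correlation of 0.0052 was -0.0547 with the R assembly alone, 0.0335 with the S assembly alone, -0.0509 without S205 and SP9, and -0.00867 to 0.0183 with each line left out. The number of chosen pairs that passed, 2, was 1 without S205 and SP9, 0 on deviations from the group means, and 0 to 3 with each line left out. It was 1 with the R assembly alone and 1 with the S assembly alone. WRKY44 had no R-assembly contig and WRKY70 no S-assembly contig, so neither of these settings could measure both pairs. The numbered family alone, the stomatal genes, the scaling to equal column sums and the settings tried on single list genes were added after seeing the data; the family without AT4G31805 and AT5G46310 had 0 calls between phenotypes and 0 between crosses, and a median correlation of 0.01. With 12 lines and 2 to 4 per group, differences under the spread between lines could not be detected; the fewest reads of any member in a line were 19, of WRKY25 in R202.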

Other observations

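Loci that carry a WRKY domain in Arabidopsis but were annotated in other words lie outside the members above, and 2 of them had values; they were looked up after the members' values were seen. WRKY1 (AT2G04880) was steady, at 31.7 ± 1.98 CPM (SD, n = 12 lines). WRKY19 (AT4G12020), whose product in Arabidopsis joins an immune receptor, a WRKY domain and a kinase domain, is annotated here as a protein kinase and split the lines by cross.

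WRKY19 stood at 0.525 and 0.752 CPM in RP6 and RP8 and at 0.626, 1.06, 0.610 and 0.637 CPM in SP3, SP7, SP9 and SRP1. In cross A it stood at 11.2, 15.1 and 13.3 CPM in R202, R206 and R221 and at 10.7, 10.1 and 16.5 CPM in S205, S207 and S242. All 6 lines of cross B lay below all 6 of cross A, and the log2 difference was -3.46 ± 0.15 (SE), with an adjusted p of 1.98e-07 by limma. It passed in all 25 alternatives, where the difference ran from -4.21 to -2.44 and the highest adjusted p was 6.45e-06. Between phenotypes its log2 difference was 0.01 ± 0.15 (limma, adjusted p = 0.989). Cross and generation cannot be told apart in this comparison. Whether the contigs come from 1 gene was not tested.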
